A study of Mus musculus with 44 samples.

Results

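Tnfrsf11a, Tcirg1 and Clcn7 are 3 genes of the osteoclast, the cell that resorbs bone, and their levels were followed in single cells sorted as osteomacs, the macrophages that sit on bone surfaces. They were taken by name and are 3 of the 3613 genes of the expression table, which covers 44 cells. The 20 co-cultured cells (with MK) came from a 16 h culture of neonatal calvarial cells of C57BL/6J mice to which 50000 megakaryocytes had been added, and the 24 without-MK cells from the same kind of culture with none added. Every cell was sorted as CD45+, F4/80+ and CD41- and captured in a Fluidigm C1 chip, which isolates single cells for cDNA synthesis. The co-cultured cells lay on plate 7 and the without-MK cells on plate 3, so plate and treatment cannot be told apart. Titles of the without-MK cells mention megakaryocytes too, which conflicts with their treatment field. Since cultures and animals are not named, each group is 1 sample, and no difference has a replicate check or a test.

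Osteoclasts form by fusion of macrophage-lineage precursors. M-CSF, acting through the receptor Csf1r, keeps the precursors alive, and RANKL, acting through the receptor RANK, drives them to become osteoclasts. The mature cell pumps protons and chloride onto the bone surface to dissolve mineral. Tnfrsf11a encodes RANK. Tcirg1 encodes the a3 subunit of the vacuolar proton pump (V-ATPase), the form of that subunit used at the bone-facing membrane, and Clcn7 encodes the chloride-proton exchanger of lysosomes and of that membrane. Loss of any of the 3 genes gives dense bone (osteopetrosis) in mice and in humans.

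The 2 groups of cells did not carry the same lineage transcripts, against the shared label. Of 18 macrophage markers, 16 were listed, and their summed level per cell ran from 3995 to 54567 CPM in co-cultured cells (median 23219) and from 0 to 176 CPM in without-MK cells (median 9.30), with 4 of the 16 at 0 in every without-MK cell. CPM stands for reads per 1000000 library reads, computed from reads recovered from the deposited signal. Ptprc (CD45) had reads in 20 of 20 co-cultured and 1 of 24 without-MK cells, and Adgre1 (F4/80) in 17 of 20 and 1 of 24. Of 18 stromal markers, 8 were listed, with sums from 3.88 to 196 CPM in co-cultured cells and from 4280 to 98723 CPM in without-MK cells. Each comparison below therefore sets cells with macrophage transcripts beside cells with stromal transcripts, and the part of this difference in the results was not tested. Of 15 megakaryocyte markers only Pf4, which macrophages also express, was listed, at 1694 CPM in co-cultured cells and 0.483 CPM in without-MK cells, so the removal of CD41+ cells (Itga2b) could not be checked. Of 16 markers of other blood cells, S100a8 and S100a9 were listed, at 133.9 and 0.895 CPM in co-cultured cells and 1.77 and 0.403 CPM in without-MK cells. Depth ran from 69181 to 1212604 library reads in co-cultured cells (median 834834.5) and from 270537 to 714465 in without-MK cells (median 527930). Co-cultured cells 11 and 16 were the only cells below 100000 reads.

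The promoter windows of the 3 genes are shown because the pump subunits, Clcn7 and their partners belong to the lysosomal genes that TFEB, TFE3 and MITF are known to act on, through a motif with the core CACGTG. That core reads the same on both strands. The windows run from 250 bases before to 50 bases after the RefSeq start of the gene (GRCm38.p6), 5′ to 3′ on the strand of the gene, and capitals mark CACGTG. For Tcirg1 and Clcn7, which have 3 and 2 annotated starts, the window of the most upstream start is printed.
Tnfrsf11a, chr1:105780473-105780772, plus strand: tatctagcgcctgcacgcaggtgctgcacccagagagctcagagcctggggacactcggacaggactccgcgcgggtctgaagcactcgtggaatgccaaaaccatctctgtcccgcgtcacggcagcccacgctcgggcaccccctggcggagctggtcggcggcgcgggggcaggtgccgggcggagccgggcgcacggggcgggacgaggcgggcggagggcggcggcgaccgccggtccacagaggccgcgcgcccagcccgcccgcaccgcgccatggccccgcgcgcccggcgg
Tcirg1, chr19:3907084-3907383, minus strand: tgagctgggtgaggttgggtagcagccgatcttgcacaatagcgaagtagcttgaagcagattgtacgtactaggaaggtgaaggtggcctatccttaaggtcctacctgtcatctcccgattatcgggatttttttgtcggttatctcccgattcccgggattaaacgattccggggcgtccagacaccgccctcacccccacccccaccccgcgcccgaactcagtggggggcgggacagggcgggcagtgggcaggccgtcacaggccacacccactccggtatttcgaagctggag
Clcn7, chr17:25133141-25133440, plus strand: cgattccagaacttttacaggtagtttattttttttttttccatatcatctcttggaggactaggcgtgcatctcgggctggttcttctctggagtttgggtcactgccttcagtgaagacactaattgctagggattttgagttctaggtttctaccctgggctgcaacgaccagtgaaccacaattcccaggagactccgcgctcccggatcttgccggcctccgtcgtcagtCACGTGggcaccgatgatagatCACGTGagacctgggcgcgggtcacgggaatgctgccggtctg

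Only the Clcn7 window of these 3 held the core, with 2 copies that begin 15 bases before the start and on base 8 after it. Over the most upstream windows of 27025 genes, 7.24% held at least 1 copy and 0.614% at least 2. Among the 2814 genes of the table with a window, 12.9% held at least 1 copy. Of the 10 pump genes with a window, 4 held it, namely Atp6v0b, Atp6v0d1, Atp6v0e and Atp6v1a. The letters GAGGAA, the core bound by the macrophage factor PU.1, were searched on both strands too and were in none of the 3 printed windows. They occur 2 times in the second Tcirg1 window and in 28.3% of all most upstream windows. None of these matches is evidence of binding in these cells. All 3 members are protein-coding genes that no other GENCODE vM21 gene overlaps. Tnfrsf11a spans bases 105780718 to 105847981 of chromosome 1 (plus strand), Tcirg1 bases 3896050 to 3907133 of chromosome 19 (minus strand) and Clcn7 bases 25133391 to 25162104 of chromosome 17 (plus strand).

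The RANK gene Tnfrsf11a was read in co-cultured cells alone, and there in some cells and not in others. It had reads in 12 of 20 co-cultured cells (60.0%, 95% interval 36.1 to 80.9%), against 0 of 24 without-MK cells, which allows a share of up to 12.5% by a limit of 3 cells, or 14.2% by the exact interval. Its level in co-cultured cells ran from 0 to 1013 CPM with a median of 1.21, and it was 0 in every without-MK cell. Co-cultured cells 19 and 18 stood highest, at 1013 and 1004 CPM, followed by cells 13, 10 and 3 at 693, 672 and 414 CPM. Cells 8, 17 and 14 had 203, 111 and 22.5 CPM. The values fell into separate ranges: these 8 cells had 18 to 1118 reads, 4 further cells (4, 5, 12 and 20) had exactly 1 read, and 8 cells had none. Counting only cells with at least 10 CPM left 8 of 20 co-cultured cells (interval 19.1 to 63.9%).

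Genes of the other lineage gave low reads too, mostly below 10 CPM. Tyrobp, a macrophage adaptor gene with 27557 reads in co-cultured cells, had 1 read in each of 3 without-MK cells (12.5%), and Ctss had 1 or 2 reads in 9 of them (37.5%). Csf1r reached 19 reads and 29.0 CPM in 1 without-MK cell. Sparc, a stromal gene, had 1 to 7 reads in 20 of 20 co-cultured cells and reached 69.8 CPM, with 2 of these cells at 10 CPM or more. The 4 co-cultured cells with 1 read of Tnfrsf11a lie at that level and are not counted as expressing it here. The 18 reads and 22.5 CPM of cell 14 lie within the range of these genes too, while the other 7 cells, from 111 CPM up, lie above it. That range depends on the genes named. The macrophage marker Cd68 reached 84 reads and 117.6 CPM in without-MK cell 2. Co-cultured cell 17, at 111 CPM of Tnfrsf11a, lies below that value.

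Summed over cells, Tnfrsf11a had 3453 reads (3339 to 3570) in co-cultured cells and none in without-MK cells, or 221 and 0 CPM. Against a floor of 3 reads over the without-MK group, it was at least 914-fold higher in co-cultured cells. Of the 3271 genes read in at least 10 of the 44 cells, 34 (1.04%) had no read in without-MK cells, and Tnfrsf11a is 1 of these. It passed that filter through co-cultured cells alone, as did Btk and Spi1 below, so the filter kept such genes only because they differ. Adam12 below passed it through without-MK cells alone. Tcirg1, read in 16 co-cultured and 6 without-MK cells, reached 10 cells in the co-cultured group only, as did several genes of the lists below. Clcn7 reached 10 cells in each group. The mean of log2(CPM + 1) of Tnfrsf11a was 3.54 ± 4.18 in co-cultured cells (SD over 20 cells) and 0 in without-MK cells. Cell 19 held 32.4% of the reads. Without it the co-cultured level was 161 CPM.

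Tcirg1, the a3 pump subunit, was higher in co-cultured cells and was the most frequently read of the 3 genes there. Reads were found in 16 of 20 co-cultured cells (80.0%, 56.3 to 94.3%), against 6 of 24 without-MK cells (interval 9.77 to 46.7%). Its level ran from 0 to 1626 CPM in co-cultured cells (median 122.96) and from 0 to 102 CPM in without-MK cells (median 0). The ranges overlap at the low end, but 10 co-cultured cells exceeded the highest without-MK cell. From 10 CPM up, 14 of 20 co-cultured cells (70.0%) and 4 of 24 without-MK cells (16.7%) counted. Co-cultured cells 7, 11 and 16 stood highest, at 1626, 1532 and 1481 CPM. Cells 11 and 16 are the shallow ones, and their values rest on 106 reads each.

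The sums were 3791 reads (3671 to 3914) in co-cultured cells and 145 reads (122.4 to 170.6) in without-MK cells, or 242 and 11.7 CPM, a ratio of 20.8 (17.6 to 24.7). The background for such a ratio is wide: 24.4% of the 3271 genes were at least 2-fold higher in co-cultured cells and 28.3% at least 2-fold lower. The mean of log2(CPM + 1) was 5.69 ± 3.86 in co-cultured cells and 1.17 ± 2.24 in without-MK cells (SD over 20 and 24 cells). Without co-cultured cell 7, which held 37.5% of its group's reads, the log2 ratio was 3.78 in place of 4.38. Without without-MK cell 2, which held 50.3%, it was 5.30. Among macrophage markers, Cd68 and Cd14 had their most without-MK reads in that cell too (84 and 41), while Csf1r and Lyz2 had theirs in cells 19 and 13. What kind of cell it was remained untested. Without the 2 shallow cells the levels were 231 CPM in co-cultured cells and 11.7 CPM in without-MK cells.

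Clcn7, the chloride-proton exchanger, showed no difference between the groups that these cells could resolve. It had reads in 11 of 20 co-cultured cells (55.0%, 31.5 to 76.9%), against 12 of 24 without-MK cells (interval 29.1 to 70.9%). Its level ran from 0 to 550 CPM in co-cultured cells (median 1.44) and from 0 to 520 CPM in without-MK cells (median 0.810), so the ranges overlapped almost entirely. From 10 CPM up, 8 of 20 co-cultured cells and 9 of 24 without-MK cells counted. The 27.9 CPM of co-cultured cell 16 rest on 2 reads.

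Single cells carried most of the Clcn7 reads in both groups. The sums were 639 reads (590 to 691) in co-cultured cells and 493 reads (450 to 539) in without-MK cells, or 40.9 and 39.7 CPM. The ratio was 1.03 (0.913 to 1.16). Co-cultured cell 15 held 52.0% of its group's reads and without-MK cell 7 held 52.9%. Without the first, the log2 ratio was −0.96, and without the second it was 1.07, in place of 0.04, so either cell alone sets the sign. Without both, the levels were 20.4 CPM in co-cultured cells and 19.5 CPM in without-MK cells. The mean of log2(CPM + 1) was 2.58 ± 2.99 in co-cultured cells and 2.41 ± 2.92 in without-MK cells. The interval of the ratio covers counting error only, and the spread between cells is far wider than it.

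**Figure D1:**
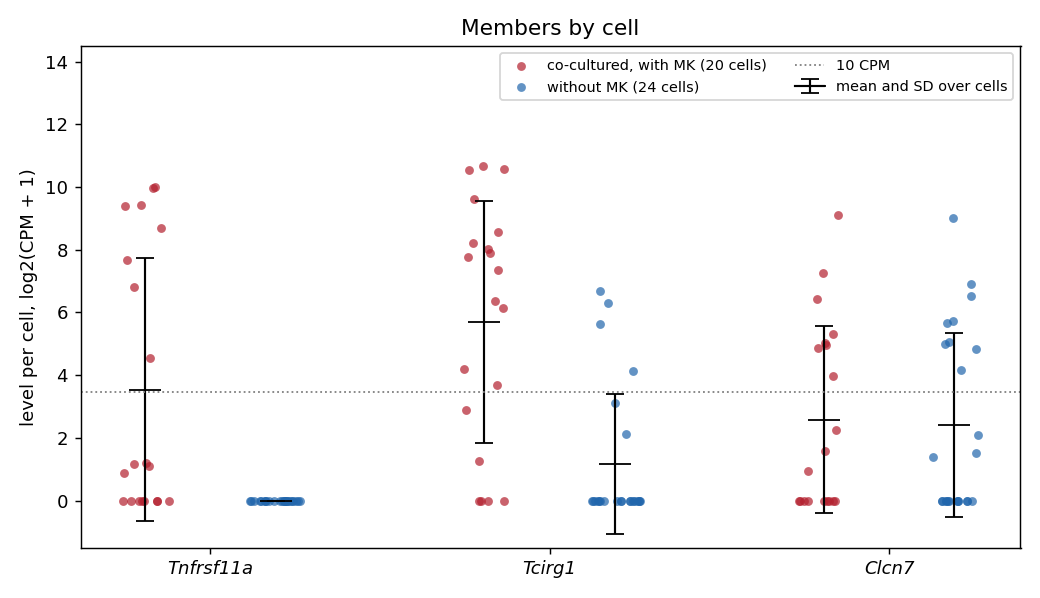
Level of each member in every cell, as log2(CPM + 1) on the vertical axis, with co-cultured cells in red and without-MK cells in blue; black bars give the mean and SD over cells and the dotted line 10 CPM. Tnfrsf11a lies at 0 in all 24 without-MK cells, Tcirg1 reaches 1626 CPM in co-cultured and 102 CPM in without-MK cells, and the 2 groups of Clcn7 values cover the same range.

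Per kilobase of annotated exon, which makes genes comparable, the pooled level in co-cultured cells was 52.7 CPM per kb for Tcirg1, 36.9 for Tnfrsf11a and 7.72 for Clcn7. In without-MK cells it was 7.50 CPM per kb for Clcn7, 2.54 for Tcirg1 and 0 for Tnfrsf11a. The exon length used is the union over GENCODE vM21 transcripts, which may differ from the transcripts present. In co-cultured cells each of the 3 genes ran from 0 to over 500 CPM between cells, so no neighbours in this order differ beyond the spread.

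Joint reads of the 3 genes in 1 cell were found in a minority of co-cultured cells. All 3 had reads in 5 of 20 co-cultured cells (interval 8.66 to 49.1%), namely cells 4, 8, 13, 18 and 19. They did so in 0 of 24 without-MK cells, which allows up to 12.5% by the limit of 3 cells, or 14.2% by the exact interval. A pair of them had reads in 10 co-cultured cells and in 3 without-MK cells. Co-cultured cell 1 had no read of any, as did 9 without-MK cells. Among co-cultured cells, every cell with Tnfrsf11a reads also had reads of Tcirg1 or Clcn7, and so did every cell with at least 10 CPM of it at that limit. Nearly all co-cultured cells did so, with or without Tnfrsf11a. Only cell 1 had no read of either, and only cells 1, 6 and 20 had neither at 10 CPM.

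The joint count depends on how many reads a cell must have. From 10 CPM up, only co-cultured cell 13 had all 3 genes (5.00%, 0.127 to 24.9%), at 693 CPM of Tnfrsf11a, 262 CPM of Tcirg1 and 152 CPM of Clcn7. In the other 4 cells at least 1 gene stood below 10 CPM, among them Tnfrsf11a with 1 read in cell 4, and Clcn7 with 1 read each in cells 18 and 19. Of the 8 co-cultured cells with at least 10 CPM of Tnfrsf11a, 5 had Tcirg1 at that level and 4 had Clcn7, while 14 and 8 of all 20 co-cultured cells had them. The acid pair, Tcirg1 with Clcn7, reached 10 CPM together in 5 of 20 co-cultured cells (4, 7, 13, 15 and 16) and in 1 of 24 without-MK cells (cell 23). In the shallow co-cultured cell 16 a single read exceeds 10 CPM, so its place in that pair rests on 2 reads of Clcn7.

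The levels of the 3 genes had little rank correlation with each other across the co-cultured cells. Spearman's rho over the 20 cells was −0.11 for Tnfrsf11a and Tcirg1, 0.17 for Tnfrsf11a and Clcn7, and −0.01 for Tcirg1 and Clcn7. Over the 24 without-MK cells it was −0.06 for Tcirg1 and Clcn7. With library reads it was 0.15, −0.26 and −0.09 for Tnfrsf11a, Tcirg1 and Clcn7 in co-cultured cells. These are descriptions over cells of 1 plate with many zeros. A missing read does not show that a cell lacks the transcript.

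**Figure D2:**
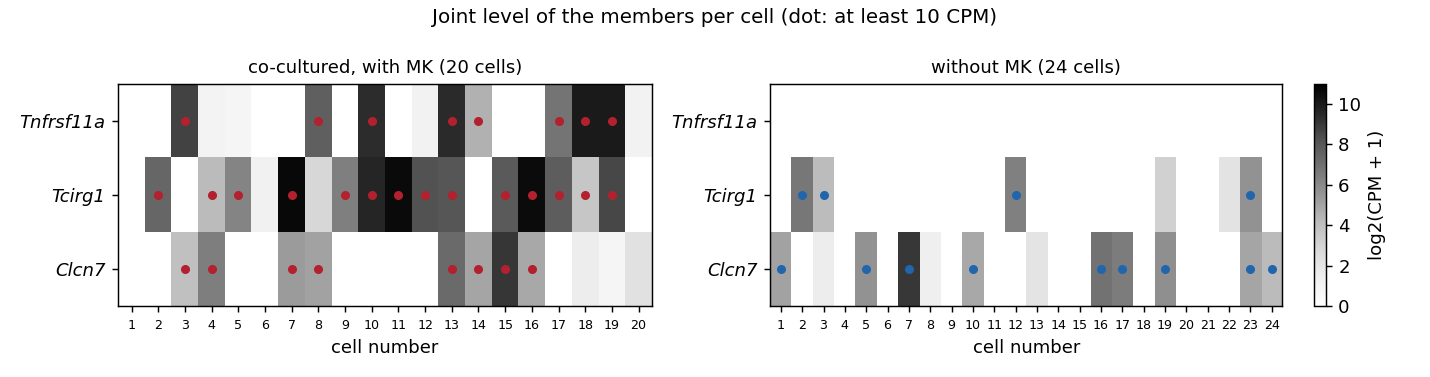
The 3 members in each cell, with cell numbers along the horizontal axis, co-cultured cells on the left and without-MK cells on the right; shading gives log2(CPM + 1) and a dot marks at least 10 CPM. Co-cultured cell 13 alone has a dot for all 3 genes, and no without-MK cell has any Tnfrsf11a.

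Receptor partners of RANK were read throughout the co-cultured cells. Csf1r, the M-CSF receptor that osteoclast precursors need beside RANK, had reads in 20 of 20 co-cultured cells (680 CPM) and 5 of 24 without-MK cells (2.01 CPM). In the 8 co-cultured cells with at least 10 CPM of Tnfrsf11a it ran from 126.2 to 1531 CPM, within the range of 91.7 to 1692 CPM over all 20. Of 31 genes of RANK and M-CSF signalling, 9 were listed and 8 were read in at least 10 cells. Of these 8, 5 were at least 2-fold higher in co-cultured cells (62.5%, against 24.4% of all genes) and 1 at least 2-fold lower, with a median log2 ratio of 1.32 beside −0.14 over all 3271 genes. The higher members were Tnfrsf11a, Csf1r and 3 kinase-pathway genes. Tnfrsf11a had to differ to pass the filter, and without it the count is 4 of 7. The MAP kinase genes Mapk14 (173 CPM in co-cultured cells and 60.5 in without-MK cells) and Mapk3 (114 and 29.8) were 2.86-fold and 3.83-fold higher. Ikbkg, the NEMO subunit of the NF-κB activating kinase, stood at 169 CPM in co-cultured cells and 77.4 in without-MK cells, but 2 co-cultured cells held 90.3% of the reads in that group. It had reads in 8 of 20 co-cultured and 13 of 24 without-MK cells, and its mean log2(CPM + 1) was 1.80 ± 3.46 in co-cultured cells and 3.35 ± 3.47 in without-MK cells (SD over 20 and 24 cells), the opposite order. Leaving out the cell with the most reads of each gene in each group left 4 of the 8 genes at least 2-fold higher. The lower member was Map3k7, which encodes the kinase TAK1 that links RANK to NF-κB, with 4.86 CPM in co-cultured cells and 85.3 in without-MK cells. It had reads in 2 of 20 and 17 of 24 cells. The kinase genes Ikbkb (40.03 CPM in co-cultured cells and 21.8 in without-MK cells) and Chuk (59.7 and 66.6) were within 2-fold. The genes of RANKL (Tnfsf11), of its decoy receptor (Tnfrsf11b) and of the adaptor Traf6 were not among those listed.

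The co-stimulatory branch, in which adaptors with ITAM motifs pass a calcium signal alongside RANK, had most of its tested genes higher in co-cultured cells. Of 17 genes, 11 were listed and 8 tested. Of these, 6 were at least 2-fold higher and none at least 2-fold lower, against 24.4% and 28.3% of all genes, with a median log2 ratio of 6.86. Btk is 1 of the 6 and passed the filter through co-cultured cells alone. The other 5 had reads in 8 without-MK cells or fewer, so all 6 reached 10 cells in the co-cultured group only. The count of 6 is therefore not independent of the filter. The adaptor genes Tyrobp (1762 CPM in co-cultured cells and 0.242 in without-MK cells) and Fcer1g (1193 and 0.805) had reads in all 20 co-cultured cells. Trem2, a receptor that pairs with Tyrobp, stood at 231 CPM in co-cultured cells and 0.0805 in without-MK cells (1 read). The phospholipase Plcg2 (255 and 6.44 CPM) and the kinase Syk (124.6 and 15.9 CPM) were 39.6-fold and 7.81-fold higher, and the kinase Btk had 82.0 CPM and no read. Few cells set these 2 fold values. For Plcg2, co-cultured cell 6 held 53.6% of its group's reads, and all 80 without-MK reads were in cell 2. For Syk, co-cultured cell 14 held 48.0%, and 2 without-MK cells held 83.3%. The calcineurin genes Ppp3ca (157 CPM in co-cultured cells and 130.8 in without-MK cells) and Ppp3r1 (74.3 and 73.5), which act at the far end of that signal, were within 2-fold. In all 8 co-cultured cells with at least 10 CPM of Tnfrsf11a, Tyrobp stood between 850.3 and 2182 CPM and Fcer1g between 876 and 1731 CPM. Tyrobp and Csf1r are also among the macrophage markers that separate the groups.

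**Figure D3:**
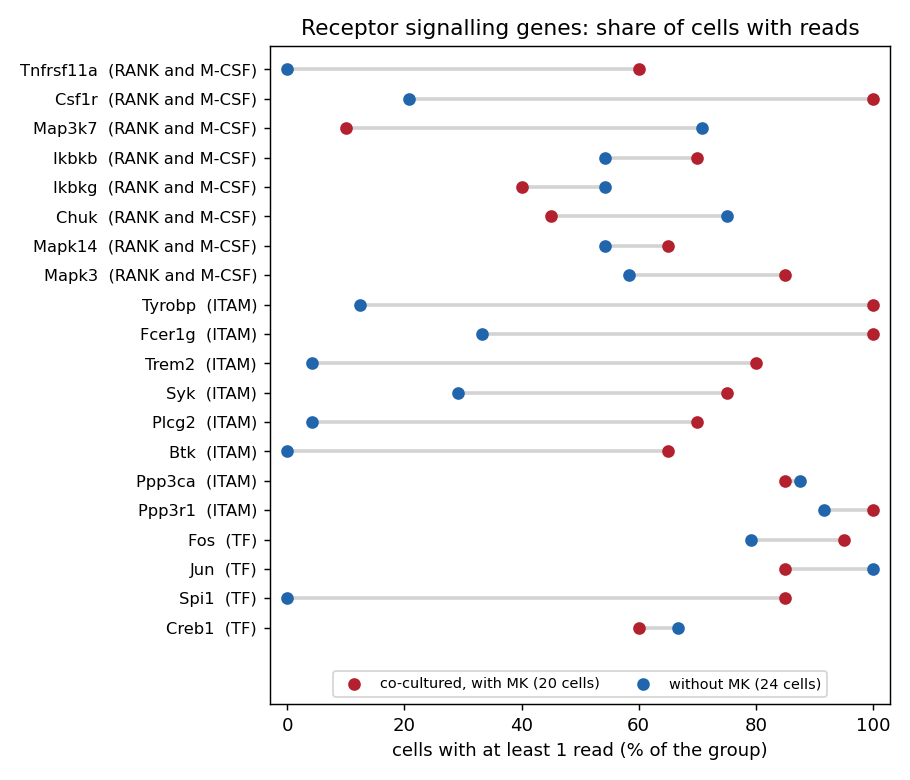
Share of cells with at least 1 read, in percent of each group, for the tested genes of RANK and M-CSF signalling, ITAM co-stimulation and transcription factors (TF); red points are co-cultured cells and blue points without-MK cells. Tnfrsf11a, Btk and Spi1 are at 0 in without-MK cells, while Map3k7 had reads in fewer co-cultured cells.

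Of 17 transcription factors of osteoclast formation, 5 were listed and 4 tested, 2 of them at least 2-fold higher in co-cultured cells, against 24.4% of all genes. Of these, Spi1 passed the filter through co-cultured cells alone. Nfatc1, the factor that commits precursors to the osteoclast fate, was not among them. Spi1, which encodes PU.1, had reads in 17 of 20 co-cultured cells (36.1 CPM) and in 0 of 24 without-MK cells, and was at least 149-fold higher. All 8 co-cultured cells with at least 10 CPM of Tnfrsf11a had Spi1 reads, from 1.23 to 140 CPM. The AP-1 gene Fos was 3.73-fold higher (616 CPM in co-cultured cells and 165 in without-MK cells). Jun (137.99 and 111 CPM) and Creb1 (78.5 and 65.0 CPM) were within 2-fold.

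Genes known as brakes on osteoclast formation were found in the same co-cultured cells. Of 18, 11 were listed and 10 tested, with 6 at least 2-fold higher in co-cultured cells (60.0%) and 2 at least 2-fold lower (20.0%), against 24.4% and 28.3% of all genes. The inhibitory receptor gene Lilrb4a led, at 2482 CPM in co-cultured cells and 6.85 in without-MK cells, followed by the transcriptional inhibitor Id2 (1600.1 and 420.04 CPM). The phosphatase Ptpn6 (653 and 0.161 CPM), the NF-κB inhibitor Tnfaip3 (439 and 40.3 CPM) and the phosphatase Dusp1 (348 and 93.2 CPM) were also among the higher members. The lower members were Id3 (93.3 CPM in co-cultured cells, against 550 in without-MK cells) and Cyld, a deubiquitinase gene (28.3 and 59.1 CPM).

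Tcirg1 had a larger ratio between the groups than the other listed V-ATPase genes. Of 23 V-ATPase genes, 14 were listed and tested, and 11 of these were at least 2-fold higher in co-cultured cells (78.6%) and none at least 2-fold lower, against 24.4% and 28.3% of all genes, with a median log2 ratio of 1.48. The ratios of the 13 other genes ran from 1.38 to 3.88, below the 20.8 of Tcirg1, with intervals, for counting error only, that did not overlap that of Tcirg1. The 13 others had reads in 17 to 24 of the 24 without-MK cells, against 6 for Tcirg1. In co-cultured cells they had reads in 16 cells or more, as Tcirg1 did. Their levels ran from 173 to 783 CPM in co-cultured cells and from 44.6 to 391 CPM in without-MK cells, where Tcirg1 had 11.7. The highest in co-cultured cells were the accessory subunit Atp6ap1 (783 CPM in co-cultured cells and 391 in without-MK cells), the membrane subunit Atp6v0b (702 and 212), the catalytic-domain subunits Atp6v1b2 (507 and 152) and Atp6v1a (420 and 110), and Atp6v0e (507 and 195). Atp6v1g1 (1.93), Atp6v1h (1.38) and Atp6ap2 (1.38) were below 2-fold, and Atp6ap1 was just above it (2.004). Leaving out the cell with the most reads of each gene in each group left 9 of the 14 at least 2-fold higher. Atp6v1d, 2.10-fold higher in pooled reads, had a lower mean log2(CPM + 1) in co-cultured cells, by a difference of −0.74. The other forms of the a subunit (Atp6v0a1, Atp6v0a2, Atp6v0a4) and the osteoclast form of the d subunit (Atp6v0d2) were not among the genes listed, so the forms could not be set beside each other.

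The tested genes of a list drawn up around Clcn7, not all of them its partners, were higher in co-cultured cells or within 2-fold. Of 21 genes for chloride, acid, lysosomes, transport or membrane traffic, Clcn7 among them, 10 were listed and 8 tested. Of these, 4 were at least 2-fold higher in co-cultured cells and none at least 2-fold lower, against 24.4% and 28.3% of all genes. Ostm1, the subunit that Clcn7 needs for its stability, had reads in 10 of 20 co-cultured cells (73.5 CPM) and 7 of 24 without-MK cells (36.9 CPM), a ratio of 1.99 (1.79 to 2.22, counting error only). As with Clcn7, single cells held most of its reads, 59.8% in co-cultured cell 3 and 66.4% in without-MK cell 11, so the 2 genes are not set apart by these ratios. Snx10, a sorting protein needed for osteoclast acid secretion, was 13.5-fold higher (364 CPM in co-cultured cells and 26.9 in without-MK cells). The lysosomal genes Tmem175 (36.4 and 6.20 CPM) and Slc29a3 (34.7 and 8.05 CPM) and the transporter gene Slc37a4 (48.5 and 11.0 CPM) were also higher, each read in 5 to 8 of 20 co-cultured cells. Their reads were concentrated too. Co-cultured cell 3 held 69.8% of its group's Tmem175 reads and cell 7 held 75.3% of the Slc29a3 reads. For Slc37a4, 2 co-cultured cells held 89.3%. Rab7, a late endosome GTPase, was within 2-fold (574 CPM in co-cultured cells and 315 in without-MK cells), and Sh3glb1, a membrane-bending protein, stood at 209 and 306 CPM. Slc4a2, the anion exchanger that feeds chloride to the osteoclast, had reads in 3 of 20 co-cultured cells and 6 of 24 without-MK cells and was not tested. The carbonic anhydrase gene Car2 was not among the genes listed.

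**Figure D4:**
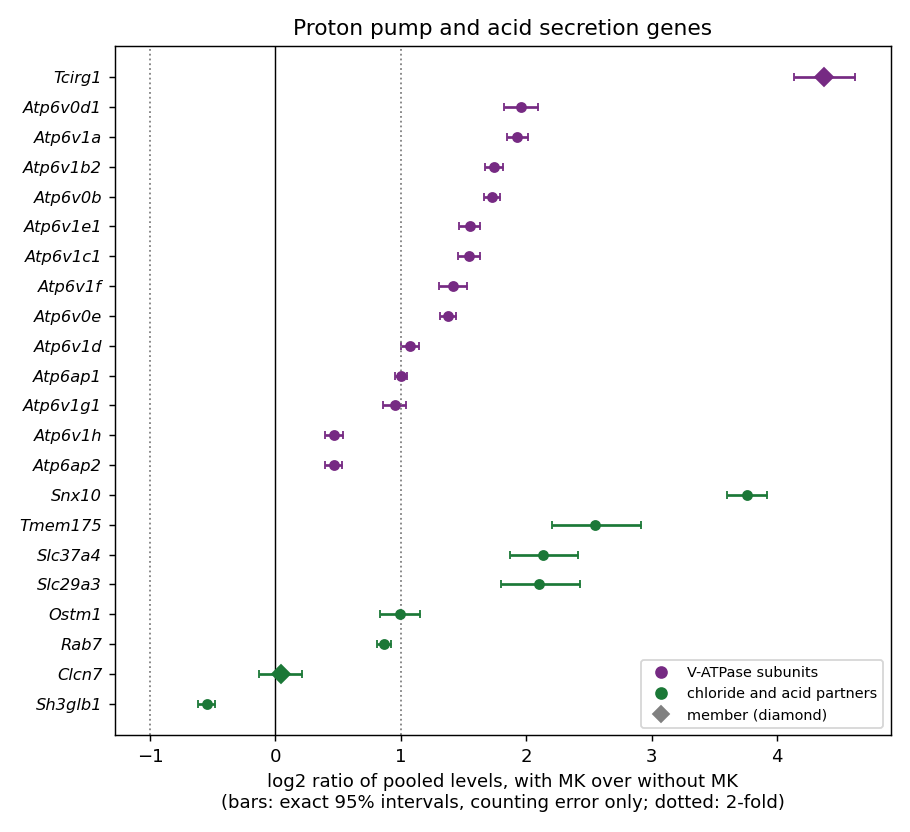
Log2 ratio of the pooled level in co-cultured over without-MK cells for the tested V-ATPase genes (purple) and the list around Clcn7 (green). The legend calls the second list chloride and acid partners, though not all are partners of Clcn7. Diamonds are Tcirg1 and Clcn7, bars are exact 95% intervals for counting error only and dotted lines mark 2-fold. Tcirg1 lies at 4.38, above the 13 other pump genes, and Clcn7 at 0.04.

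Genes of the resorbing, fused osteoclast gave no common direction. Of 21, 8 were listed, with 2 at least 2-fold higher in co-cultured cells (against 24.4% of all genes) and 3 at least 2-fold lower (37.5%, against 28.3%). Adam12 is 1 of the 3 and passed the filter through without-MK cells alone. Cd200r1 is 1 of the 2 and had reads in 14 co-cultured cells and 1 without-MK cell. Cd200r1, a receptor that promotes fusion, stood at 309 CPM in co-cultured cells and 0.0805 in without-MK cells, and Cd47, a ligand of the fusion-related receptor Sirpa, at 113 and 50.7 CPM. The lower members were the integrin gene Itgav (162 CPM in co-cultured cells and 485 in without-MK cells), the protease gene Mmp14 (53.4 and 131.05 CPM) and Adam12 (no read and 169 CPM). Cd44 (1137 and 2158 CPM), Cd9 (560.3 and 454 CPM) and Adam8 (45.8 and 33.6 CPM) were within 2-fold. The defining genes of mature osteoclasts, among them Ctsk, Acp5, Mmp9, Calcr, Itgb3 and Dcstamp, were not among those listed, so osteoclast identity could not be checked.

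Genes with the most similar pattern to each member over the 20 co-cultured cells were taken from the 2168 genes read in at least 10 of those cells. For Tnfrsf11a they were Pfdn1 (Spearman's rho 0.69), Uqcr11 (0.68), Clic4 (0.67), Atp6v1f (0.67), a subunit of the V-ATPase, and Riok3 (0.66). For Tcirg1 they were Plekho1 (0.73), Itm2a (0.69), Capns1 (0.66), Tgoln1 (0.65) and Sgpl1 (0.62). For Clcn7 they were Pisd-ps1 (0.70), a pseudogene whose reads may be shared with its parent gene, Ube2a (0.58), Grina (0.57), Ubl3 (0.56) and Anxa4 (0.56). No gene was named for more than 1 member. The cells share a plate and differ in depth, and with so many genes compared over 20 cells these values are descriptions. Only 6 of the 15 genes were named again without the 2 shallow cells.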

How the data were processed

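The deposited table holds 3613 genes and 44 cells, and every column was matched to a cell through its description label. Per the submitters' processing notes, the build was mm10 and Seurat was among the tools. Aligner, counter, annotation and the choice of listed genes were not stated in the labels.

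The deposited values are a signal, which the values themselves show to be the reads of a gene × 1e+09 over 2 divisors, the cell's total of library reads and a whole number fixed for each gene. Library reads came from the most frequent value of each cell. The smallest whole divisor per gene then gave whole reads for 99807 of 99807 values above 0, within 0.0001 of a whole number. The procedure was tested on simulated data, where 3220 of 3221 genes with reads in 10 or more of 44 simulated cells came back exactly. A gene read in few cells may carry a divisor that is too small, which scales its reads but not its ratio between groups. CPM is recovered reads × 1000000 / library reads and is not a deposited unit. It compares cells within a gene, and genes with each other only per length.

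Cells were grouped by the treatment field. With no culture or animal named, each group counts as 1 sample, so no test between groups was made. Shares have exact Clopper-Pearson 95% intervals, sums of reads exact Poisson intervals and ratios of sums exact binomial intervals, all for counting error only, since reads without molecular identifiers are not independent molecules. SDs are over cells. Where a group had no read, a floor of 3 reads over the group gave a ratio, which can lie above the exact lower limit. Beside a share of 0, the limit of 3 cells of the group is given. No cell was removed or clustered and no doublet caller was run. Ratios are given for genes with reads in 10 or more of all 44 cells.

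The members, the gene lists and the rules were chosen with earlier results of these data known. Named genes are the members, the sort markers, the list members with the highest co-cultured CPM (up to 6 a list) with those that go against their list, and the 5 genes most like each member by Spearman correlation of CPM over the co-cultured cells. Other genes are named only where a count of 5 or fewer calls for it. Alternatives were another total, median-ratio scaling, thinning to 250000 reads, leaving out cells, a limit of 10 CPM, another fold limit, other pseudocounts and the mean deposited signal. Promoter windows come from RefSeq (GRCm38.p6), and gene positions and exon lengths from GENCODE vM21 on the same build. Python 3.11.15, numpy 2.4.6, pandas 2.3.3, scipy 1.17.1 and matplotlib 3.10.9 were used.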

Additional observations from a re-analysis of the deposited data

How the results depend on the processing

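The log2 ratio of Tnfrsf11a against the floor of 3 reads was 9.84, with an exact lower limit of 9.54. It was 9.57 with listed reads as the total and 9.98 with median-ratio scaling. It was 8.82 on cells thinned to 250000 reads and 9.38 without the top cell. The difference of mean log levels, another quantity, was 3.54 with a pseudocount of 1 CPM and 2.07 with 10 CPM. For Tcirg1, 4.38 became 4.11 with listed reads as the total, 4.71 without the top cell of each group, 5.06 on the mean deposited signal and 2.81 as a mean log difference with a pseudocount of 10 CPM. For Clcn7, 0.04 became −0.22 with listed reads as the total, 0.33 on thinned cells and 0.25 on the mean deposited signal, so its sign depends on the total used. Leaving out any 1 cell (an alternative chosen after seeing the data) gave 9.38 to 9.95 for Tnfrsf11a, 3.78 to 5.30 for Tcirg1 and −0.96 to 1.07 for Clcn7. The other alternatives for these ratios lay within the counting interval. The share of co-cultured cells with all 3 genes was 5.00% from 10 CPM up, and 22.2% and 27.8% on thinned cells and without shallow cells, against 5 of 20 cells. Thinned, Tnfrsf11a had reads in 11 of 18 co-cultured and 0 of 24 without-MK cells, Tcirg1 in 13 of 18 and 6 of 24, and Clcn7 in 9 of 18 and 9 of 24. Over the 7 pathway lists, 36 of 60 tested genes were at least 2-fold higher and 6 at least 2-fold lower, against 24.4% and 28.3% of all genes. Some of them passed the filter only through the group where they are higher, among them Tnfrsf11a, Btk, Spi1 and Adam12. At 4-fold the counts were 19 and 3, by the stricter limit itself. Under the other alternatives between 34 and 41 were higher, with 39 of 68 genes where no filter was set. The shares over all genes are given for the main setting only, so the counts under alternatives have no such share beside them. Median-ratio scaling, which takes a median log2 ratio of −0.15 off every gene, left 41 higher and 5 lower. Of the 15 genes named for likeness, 6 were named again with Pearson correlation of log levels and 6 without the shallow cells. With no read of Tnfrsf11a in without-MK cells, its mean deposited signal gives no ratio. No paired analysis was possible because the replicate numbers only count cells and no test between groups was made. A missing read does not show that a cell lacks the transcript. A count of 0 of 24 cells allows a share of up to 12.5% by the limit of 3 cells, or 14.2% by the exact interval, limits set by the number of cells.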

Other observations

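The whole number by which the deposited signal of a gene is divided differed widely between genes and had a weak positive rank correlation with their reads. It was 3 for Tnfrsf11a, 6 for Clcn7 and larger than either for Tcirg1, and 12678 for Actb, 1133 for the macrophage gene Lyz2 and 1 for the stromal gene Sparc. Across the 2625 genes read in at least 20 cells, its Spearman correlation with the reads of a cell ran from 0.21 to 0.34 in the 20 co-cultured cells and from 0.09 to 0.20 in the 24 without-MK cells, as a description across genes, which are not replicates. Summed over the listed genes it came to 574119, within the range of library reads of the cells (69181 to 1212604). What the number stands for was not tested. The deposited values of Tnfrsf11a and Tcirg1 therefore cannot be set beside each other: the mean deposited signal in co-cultured cells was 68950 for Tnfrsf11a and 2634 for Tcirg1, while their pooled levels were 221 and 242 CPM.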
